A study of Mus musculus with 12 samples.

Results

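Training under GW1516 was compared by setting 3 arrays of drug-treated, exercised mice (GW + Exercise, called the combination here) against 3 arrays of sedentary mice given the same drug (GW). These are 6 of the 12 arrays of a mouse quadriceps study, chosen by their sample titles and not by any measured value. All groups were C57Bl/6J mice treated over 4 weeks: vehicle without training, vehicle with training (Exercise), GW1516 at 5 mg/kg/day without training, and GW1516 at that dose with training. The RNA on an array came from a pool of 3 animals, which makes 9 mice per group. The p-values below therefore measure only the spread between pools. The training protocol, the route of dosing, the sex and age of the animals and the time between the last bout and collection are not given in the sources used here.

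GW1516 is an agonist of PPARδ, a nuclear receptor that in muscle switches on genes for the uptake, transport and oxidation of fatty acids. Endurance training works on many of the same genes through contraction-driven signals, among them calcium, AMP-activated protein kinase and the coactivator PGC-1α, and each bout also gives a short burst of immediate early and heat shock transcripts. The comparison of combination with GW asks what training adds to muscle that already carries the drug.

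Values are MAS5 signals on a linear scale, given as mean ± SD over 3 arrays, and differences are log2 signal ± SE from limma, positive where the combination is higher. Of 22626 probe sets, 13575 passed the filter on low signal and were tested, and bacterial control probe sets, which have no target in mouse RNA, had a 95th percentile of 23.5. Of 18 skeletal muscle markers 17 were tested, with a median signal of 17276 and none below 1965 on the 6 arrays, so the defining markers of the labelled tissue were present. The correlation of log2 signals between 2 arrays lay between 0.957 and 0.962 within the combination, 0.949 and 0.964 within GW, and 0.949 and 0.967 across the groups, with means of 0.961, 0.954 and 0.957.

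A pair of arrays stood apart from their groups in particular genes. GW array 1 had 170 probe sets more than 2-fold above both other GW arrays, where the other 11 arrays had 30 to 123 such probe sets in their own groups, and these held stretch and Z-disc genes. Combination array 1 had only 62 such probe sets, but they held heat shock and immediate early genes, and it lacked the high fat cell and lipid synthesis signals of combination arrays 2 and 3. Results that rest on these arrays are given with and without them.

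No probe set passed an adjusted p of 0.05 for training under GW1516: 0 of 13575 were higher (0%) and 0 were lower (0%). The smallest adjusted p by limma was 0.218. At an unadjusted p of 0.05, 375 probe sets were higher (2.76%) and 406 lower (2.99%), and the 3 arrays of a group lay wholly above the other 3 for 696 probe sets (5.13%) or wholly below them for 730 (5.38%). The typical change was small, with a median absolute difference of 0.15 on the log2 scale and a median SE of 0.21. The 95% confidence interval lay within a 2-fold change either way for 10592 probe sets (78.0%) and within 1.5-fold for 6385 (47.0%). A change above 2-fold thus lies outside the interval for most probe sets, and one of 1.5-fold for fewer than that.

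Most genes called higher under the drug had signals that overlapped with and without training. Acadl (Entrez gene 11363), a dehydrogenase that begins the mitochondrial breakdown of long-chain fatty acids, had signals of 2839, 3124 and 2589 on the combination arrays and 2829, 2999 and 2651 on the GW arrays. The 2 sets of values interleave, and the difference was 0.01 ± 0.10 (95% interval -0.21 to 0.23). Mlycd, a decarboxylase that removes malonyl-CoA and so frees carnitine palmitoyltransferase, read 880, 879 and 837 in the combination and 881, 818 and 935 in GW, a difference of -0.02 ± 0.10 (-0.23 to 0.19). For both genes the interval leaves no room for a change of 1.25-fold.

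Ucp3 (Entrez gene 22229), an uncoupling protein of muscle mitochondria, read 1253, 1298 and 1354 in the combination and 1623, 1220 and 1468 in GW in one probe set, a difference of -0.13 ± 0.12. Its other probe set had 0.14 ± 0.13, so the 2 probe sets lay on either side of 0. Fabp3, a fatty acid binding protein, read 4506, 4890 and 4653 against 5221, 3946 and 4359, with a difference of 0.06 ± 0.12 (-0.19 to 0.32). Here too the combination arrays fell inside the range of the GW arrays. Slc25a20, the carnitine-acylcarnitine carrier, had differences of -0.13 ± 0.16 and 0.03 ± 0.15 in its 2 probe sets.

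Pdk4, a kinase that holds back pyruvate oxidation, read 2932, 3876 and 3604 in the combination and 5335, 2714 and 2954 in GW. Its difference of -0.02 ± 0.23 contains GW array 1, which was far above the other GW arrays, and without that array it was 0.28 ± 0.19 (adjusted p = 0.816). Angptl4, a secreted inhibitor of lipoprotein lipase, read 156, 342 and 328 against 304, 145 and 177, and its difference of 0.39 ± 0.66 has an interval from -1.03 to 1.80, too wide to say whether training altered it.

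Of the 10 probe sets called higher under the drug, those of Slc27a1 and Fbp2 and 1 of Acaa2 had the combination arrays above all GW arrays without passing the test. Slc27a1 (Entrez gene 26457), which brings fatty acids into the fibre, read 364, 431 and 442 in the combination and 342, 329 and 319 in GW, a difference of 0.32 ± 0.15 (adjusted p = 0.856). Fbp2, the muscle fructose bisphosphatase, read 1687, 1919 and 1720 against 1288, 1541 and 1528, a difference of 0.29 ± 0.12 (adjusted p = 0.834). The thiolase Acaa2 read 1131, 1120 and 1124 against 979, 925 and 1002 in that probe set, a difference of 0.22 ± 0.08 (adjusted p = 0.803). The groups do not overlap in these 3 probe sets, as in 5.13% of all probe sets tested.

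**Figure D1:**
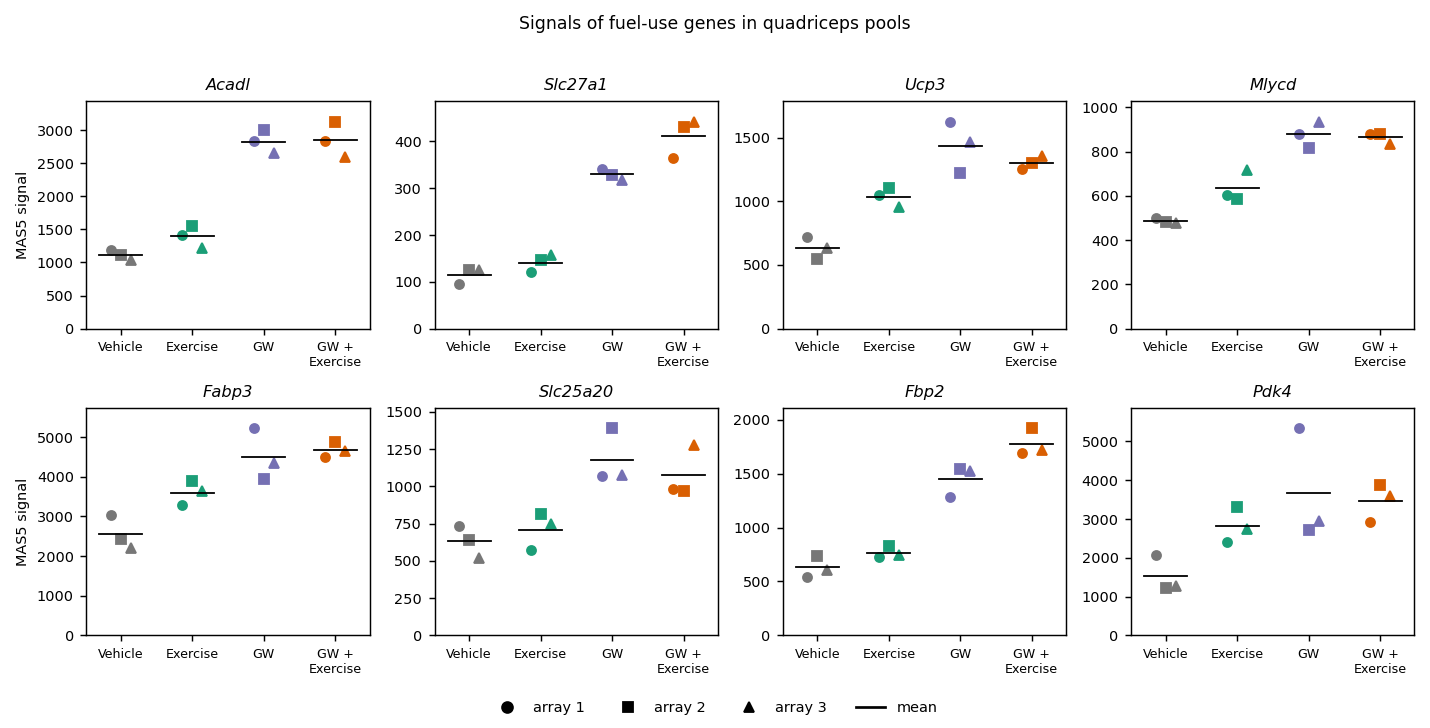
MAS5 signals (linear axes from 0) of 8 genes with a higher mean signal in GW than in vehicle arrays, on each of the 12 arrays. Pdk4 and the Slc25a20 probe set shown did not pass the test of GW against vehicle. Symbols mark the array number within a group and the bar is the mean of 3. The GW and GW + Exercise arrays interleave for Acadl (2829, 2999 and 2651 against 2839, 3124 and 2589), Mlycd, Ucp3, Fabp3, Slc25a20 and Pdk4, and separate for Slc27a1 and Fbp2.

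For comparison, GW arrays against vehicle arrays called 10 probe sets higher (0.0737%) and 3 lower (0.0221%). That comparison uses the same GW arrays as the training contrast, so their values are only set side by side. Against vehicle, the drug difference was 1.34 for Acadl, 1.53 for Slc27a1, 1.21 for Fbp2, 0.85 for Mlycd, 0.82 for Fabp3 and 1.18 and 1.41 for the 2 Ucp3 probe sets, while the training difference in treated muscle ran from -0.13 to 0.32 over the same probe sets.

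The lists that hold these genes leaned slightly upward. Of 22 genes of mitochondrial fatty acid oxidation tested (of 25 listed), 18 had a positive difference and 0 passed the test, with a median of 0.12 beside 0.01 over all 7940 genes, of which 51.8% were positive. All 22 intervals lay within a 2-fold change and 20 within 1.5-fold. At an unadjusted p of 0.05, where 2.92% of all genes were higher, 4 of the 22 were: Cpt2, the inner carnitine palmitoyltransferase (0.41 ± 0.12, combination 917, 1017 and 872 against GW 745, 653 and 716), the electron transfer flavoprotein subunit Etfb (0.23 ± 0.07), Acaa2 (0.22 ± 0.08) and the medium-chain dehydrogenase Acadm (0.21 ± 0.08). The 3 combination arrays were above the 3 GW arrays for 7 of the 22, and for 5.13% of all probe sets. The other 2 Acaa2 probe sets had 0.28 and -0.09.

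Of 23 PPAR target genes tested (of 28), 16 were positive and 0 passed, with a median of 0.23. Against the GW mean, the list median was -0.19, 0.24 and 0.31 on combination arrays 1, 2 and 3. On the GW arrays it was 0.05, -0.06 and -0.03. Combination array 1 thus lay below every GW array, and the upward lean came from combination arrays 2 and 3. The 6 that were higher at an unadjusted p of 0.05 (2.92% of all genes) included Cpt2, Acaa2, the lipid droplet coat protein Plin2 (0.74 ± 0.21), the fatty acid translocase Cd36 (0.41 ± 0.19) and the lipid droplet protein Cidec (1.76 ± 0.65). Plin2 read 426, 564 and 630 in the combination and 342, 313 and 302 in GW, so its groups do not overlap. Lpl, the lipase that frees fatty acids from lipoproteins, read 2407, 3579 and 4004 against 3075, 2105 and 2620. Its combination array 1 lay inside the GW range and the other 2 above it. Cd36, Lpl, Cidec and Fabp4 of this list are also abundant in fat cells.

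The genes with the smallest p-values have other roles, and none passed the test. Kpna4 (Entrez gene 16649), an importin that carries proteins into the nucleus, had the smallest p, with signals of 246, 184 and 170 in the combination and 478, 355 and 396 in GW. Every combination array was below every GW array, and the difference was -1.04 ± 0.17 (95% interval -1.40 to -0.69, adjusted p = 0.218). Exercise arrays without drug, at 438, 419 and 428, were above vehicle arrays at 364, 270 and 262. The difference between the 2 training effects, -1.58, also had the smallest p of all probe sets for that comparison, with an adjusted p of 0.102. This rests on 1 of the 2 probe sets of Kpna4, and the other is not given here.

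Pfkfb3, whose product makes the fructose 2,6-bisphosphate that activates phosphofructokinase, read 1982, 1615 and 1443 in the combination and 574, 1157 and 707 in GW. All combination arrays were above all GW arrays, by 1.10 ± 0.19 (adjusted p = 0.287), in 1 of the 2 Pfkfb3 probe sets tested. Without GW array 2, the highest of the GW arrays, the difference was 1.39 and passed (adjusted p = 0.00218). GW is the low group here: vehicle arrays read 1873, 2375 and 1930 and exercise arrays 2169, 1982 and 2186, so the combination arrays stood near or below the untreated level.

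The same arrangement held for Dusp10, a phosphatase of stress-activated kinases (295, 300 and 252 in the combination against 180, 182 and 157 in GW, 0.70 ± 0.14, adjusted p = 0.287), and Gadd45g, a stress-inducible growth regulator (1454, 1232 and 831 against 633, 647 and 722, 0.78 ± 0.18, adjusted p = 0.529). The groups do not overlap in either gene, and vehicle arrays lay at 269 to 348 for Dusp10 and 1215 to 1738 for Gadd45g. Dusp10 is given by 1 of 2 probe sets tested. Nr1d1, the clock repressor REV-ERBα, read 572, 536 and 367 against 206, 349 and 210, with vehicle arrays at 353 to 535 (0.97 ± 0.22, adjusted p = 0.529). Pfkfb3, Dusp10 and Gadd45g are the 3 lower calls of GW against vehicle, and the GW arrays enter both comparisons with opposite sign, so these differences are not independent of each other.

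Other genes among the 10 smallest p with lower signal in the combination were Mid1ip1, an activator of acetyl-CoA carboxylase (397, 355 and 345 against 561, 537 and 639, -0.66 ± 0.13), Oxct1, the first enzyme of ketone body use (165, 148 and 133 against 253, 285 and 221, -0.76 ± 0.15), and the fucosyltransferase Pofut2 (-1.18 ± 0.24). All 3 had an adjusted p of 0.287, and none of them overlapped between groups, as for the 5.38% of all probe sets wholly lower. Like Kpna4, Pfkfb3, Dusp10 and Gadd45g above, they were picked by a small p in this comparison. The lack of overlap is therefore no further support. Ndufa7, a subunit of complex I, read 1635, 1602 and 1686 against 1926, 2325 and 2376 (-0.42 ± 0.11), and the calcium release complex protein Trdn read 57.3, 80.4 and 60.1 against 126, 107 and 127 (-0.88 ± 0.22), both with an adjusted p of 0.670. Osgin1, Cd24a, Mycbp2 and the potassium channel gene Kcnh3 complete the list, with differences of -0.74, -0.65, -0.60 and -1.89.

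Among the 10 with higher signal, Mta3 (2.12 ± 0.42) and Fibp (1.69 ± 0.38) rest on GW signals near the level of the bacterial controls: Mta3 read 16.9, 34.7 and 11.5 in GW, and Fibp 26.4, 52.5 and 20.8. Npc2, a lysosomal cholesterol carrier, was among the most even, at 1034, 1013 and 1014 against 829, 747 and 736 (0.41 ± 0.10, adjusted p = 0.670). Dag1, the dystroglycan of the muscle membrane, read 442, 1045 and 805 against 378, 324 and 370 (1.01 ± 0.24, adjusted p = 0.670), in 1 of 4 probe sets tested.

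Fat cell markers had the highest median of the lists, lipid synthesis genes leaned the same way, and both came from 2 of the 3 combination arrays. Adipoq (Entrez gene 11450), the fat cell hormone adiponectin, read 270, 1049 and 1471 in the combination and 248, 346 and 363 in GW. Combination array 1 lay within the GW range and arrays 2 and 3 above it, and the difference was 1.25 ± 0.43 (adjusted p = 0.728). Exercise arrays (283 to 338) sat in the GW range as well, while vehicle arrays (331, 210 and 365) ran from below it to just above it.

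Fasn (Entrez gene 14104), the fatty acid synthase, read 291, 847 and 1543 against 225, 271 and 293, a difference of 1.47 ± 0.42 (adjusted p = 0.716). Thrsp, a lipogenic regulator of liver and fat, read 414, 970 and 1325 against 371, 461 and 531 (0.85 ± 0.30), and the citrate lyase Acly read 160, 312 and 377 against 171, 161 and 131 (0.80 ± 0.26). Thrsp is given by 1 of 2 probe sets tested and Acly by 1 of 3. In all 3 genes combination array 1 lay inside the GW range and arrays 2 and 3 above it. Scd1 (Entrez gene 20249), the stearoyl-CoA desaturase, differed in that array 1 was also above GW: it read 2235, 4115 and 6193 against 1170, 1681 and 1880 in one probe set (1.32 ± 0.28, adjusted p = 0.497) and 81.4, 211 and 306 against 45.4, 45.5 and 54.6 in the other (1.85 ± 0.37, adjusted p = 0.287).

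**Figure D2:**
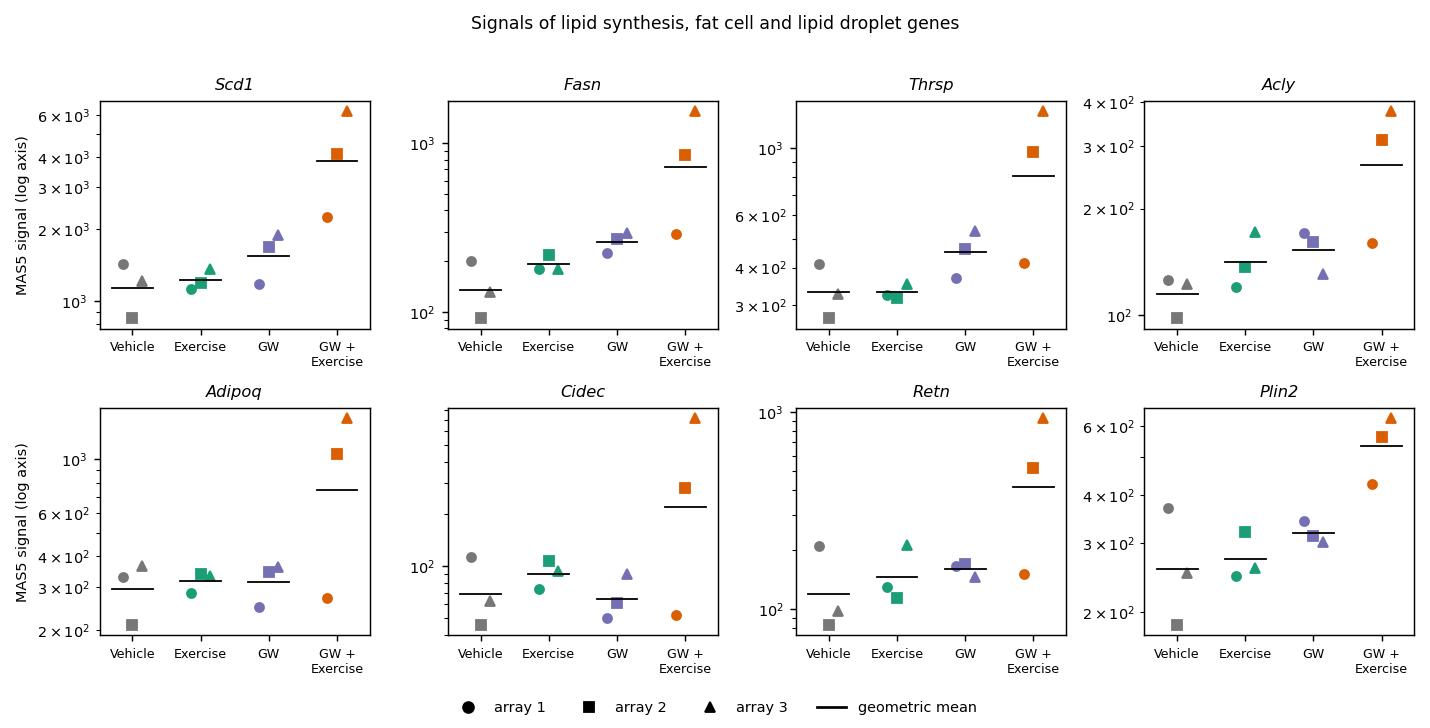
MAS5 signals (log axes) of lipid synthesis genes (Scd1, Fasn, Thrsp, Acly), fat cell genes (Adipoq, Cidec, Retn) and the droplet protein Plin2 on each of the 12 arrays, with array numbers as symbols and geometric means as bars. Arrays 2 and 3 of GW + Exercise stand above all other arrays of every gene shown, while array 1 lies within the GW range for Fasn, Thrsp, Acly, Adipoq, Cidec and Retn.

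All 10 adipocyte markers tested (of 16) had a positive difference and 0 passed, with a median of 1.08, and 7 were higher at an unadjusted p of 0.05 (2.92% of all genes). Resistin (Retn) read 150, 521 and 929 against 166, 168 and 145, and Cidec 51.6, 283 and 716 against 49.7, 60.8 and 89.1. Only 1 of the 10, Adig (49.1, 79.3 and 121 against 24.0, 41.7 and 21.2), had groups that do not overlap, beside 5.13% of all probe sets with the combination wholly higher. Its GW signals of 24.0 and 21.2 lay near the bacterial control level of 23.5. The summed signal of the 10 markers was 7334, 13384 and 16795 in the combination, 6284, 9423 and 7915 in GW, 6816 to 7502 in vehicle and 6763 to 8229 in exercise arrays. The lowest signal of a marker on the 6 combination and GW arrays was 21.2. In bulk RNA, more cells of a type and more RNA per cell cannot be told apart, and the part of fat tissue in the pools in this result was not tested.

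Of 19 lipid synthesis genes tested (of 24), 16 were positive and 0 passed, with a median of 0.32 and 5 higher at an unadjusted p of 0.05, as were 2.92% of all genes. These were Scd1, Fasn, Thrsp, Acly and the triglyceride-making Dgat2. Many of the listed enzymes are abundant in fat cells too. The sterol genes Hmgcs1 (-0.06) and Srebf2 (0.14), the muscle carboxylase Acacb (-0.11) and the acyltransferase Gpam (0.06) had differences near 0, and Srebf1, a transcription factor of lipid synthesis, had 0.38 (unadjusted p = 0.12).

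Without combination array 1, 31 of 13575 probe sets were higher and 4 lower at an adjusted p of 0.05. Of the 22 genes with a symbol of their own that were higher, 11 belong to the adipocyte or lipid synthesis lists (6 and 5). Those lists have 10 and 19 of the 7940 genes tested. Adipoq then had 1.98 ± 0.23 (adjusted p = 0.00420), the dimmer Scd1 probe set 2.39 ± 0.27 (0.00420), Fasn 2.13 ± 0.29 (0.0103), Cidec 2.80 ± 0.41 (0.0109) and Pck1 2.83 ± 0.50 (0.0352). Pck1 rests on GW signals of 34.1, 25.3 and 22.0, near the bacterial control level of 23.5. The rest included Cyp2e1, Mgst1, Slc1a5, Hacd2, Tkt and Ephx2. A pair of probe sets that each match several haemoglobin genes, markers of blood, were also higher, by 0.74 ± 0.11 (adjusted p = 0.0109) and 0.66 ± 0.11 (0.0308), and their part in the result was not tested. The 2 blood cell markers tested under a single symbol went either way in that fit. Hba-a2 had -0.51 ± 0.42 and Alas2 0.23 ± 0.52, and neither passed. The lower genes with a symbol were Kpna4, the mitochondrial carrier Slc25a30 and 2610507B11Rik. The list medians were 1.65 for adipocyte markers and 0.40 for lipid synthesis. This array was left out after its values had been seen, and it stood out by the fat cell and lipid genes themselves, so these calls describe 2 pools of 3 mice and are no test of the group. Without combination array 3 the adipocyte median was 0.62.

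The promoters of Fasn and Thrsp, from RefSeq on GRCm38.p6, are shown because both genes had the same order of signals over the combination arrays. The 150 bases before the start are given 5′ to 3′ on the gene's strand, with CCAAT boxes in capitals (CCAAT, or ATTGG on the other strand), a common motif bound by the factor NF-Y.
Fasn, chr11:120824548-120824697, minus strand: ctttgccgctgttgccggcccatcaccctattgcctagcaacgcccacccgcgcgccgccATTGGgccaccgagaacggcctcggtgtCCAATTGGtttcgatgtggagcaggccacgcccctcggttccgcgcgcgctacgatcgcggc
Thrsp, chr7:97417551-97417700, minus strand: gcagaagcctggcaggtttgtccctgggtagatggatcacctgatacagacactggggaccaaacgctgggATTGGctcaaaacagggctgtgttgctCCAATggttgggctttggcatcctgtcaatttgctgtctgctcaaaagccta
The boxes begin 90, 62 and 59 bases before the start in Fasn, the last 2 overlapping, and 79 and 52 bases before it in Thrsp. Over windows of 300 bases (250 before to 50 after the start), 13 of 17 lipid synthesis genes with a window held the motif (76.5%), against 37.4% of all 32851 windows. A listed gene counted if any of its windows held the motif, while the share over all is per window. The shares are thus in unlike units, and a gene with several windows has more chances to count. These are letter matches, not measured binding.

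Fos, Egr1, Hspa1a and Hspa1b, which contraction or stress induces within minutes to hours, were high on all exercise arrays without drug and on array 1 of the combination. Fos (Entrez gene 14281), an immediate early transcription factor, read 460, 92.5 and 39.2 in the combination, 111, 23.6 and 37.6 in GW, 900, 872 and 1127 in exercise and 49.3, 54.2 and 48.3 in vehicle arrays. Combination array 1 was above every GW array and below every exercise array, while arrays 2 and 3 lay in the range of GW. The difference was 1.36 ± 0.66 (adjusted p = 0.856), against 4.25 without drug, and the 2 differed by -2.89 (adjusted p = 0.703).

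Egr1, another immediate early factor, read 414, 96.4 and 61.8 in the combination and 192, 59.8 and 79.1 in GW, against 794, 869 and 937 in exercise and 85.3, 57.9 and 78.7 in vehicle arrays. Its training difference was 0.48 ± 0.53 with drug and 3.57 without. Klf4, a zinc finger factor, was more even, with 188, 171 and 113 in the combination and 78.2, 88.4 and 115 in GW (0.73 ± 0.23, adjusted p = 0.726), next to 0.85 without drug. Ier5 went the other way, with all combination arrays (85.4 to 89.4) below all GW arrays (132 to 145).

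The inducible chaperones had the same single high array. Hspa1a read 1308, 141 and 65.9 in the combination and 164, 69.8 and 118 in GW, and Hspa1b read 1916, 161 and 58.2 against 131, 57.1 and 161. Exercise arrays lay at 678 to 987 for Hspa1a and 906 to 1322 for Hspa1b, so combination array 1 exceeded all of them. Dnajb1, the co-chaperone of HSP70, read 1697, 224 and 121 against 102, 82.5 and 110, with all combination arrays above all GW arrays (1.88 ± 0.62, adjusted p = 0.728). Dnajb1 is given by 1 of 2 probe sets tested and Hspa1b by 1 of 3. Hspa8, the constitutive family member, was level at 6170, 6007 and 6225 against 6703, 5751 and 5842 (0.01 ± 0.13).

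**Figure D3:**
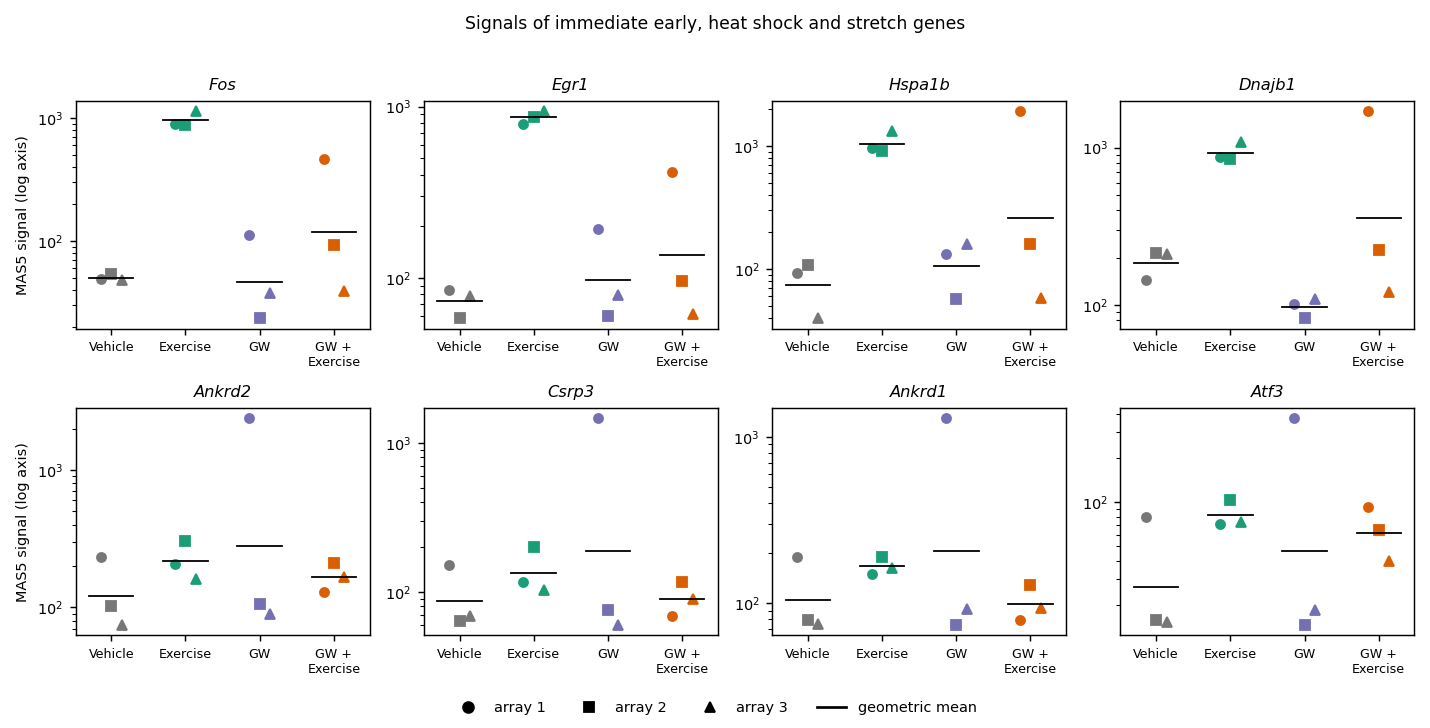
MAS5 signals (log axes) of immediate early genes (Fos, Egr1), heat shock genes (Hspa1b, Dnajb1) and stretch or stress genes (Ankrd2, Csrp3, Ankrd1, Atf3) on each of the 12 arrays, with array numbers as symbols and geometric means as bars. The upper genes are high on all 3 Exercise arrays and on array 1 of GW + Exercise (Fos 460 against 92.5 and 39.2), and the lower genes are high on array 1 of GW (Ankrd2 2388 against 105 and 89.4).

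The promoters of Hspa1a and Hspa1b are shown because the 2 genes are near-identical copies whose probe sets may read both. Of the 300 bases of their RefSeq windows, 296 are identical (98.7%). The 150 bases before each start follow, 5′ to 3′ on the gene's strand (GRCm38.p6), with the core of a heat shock element, GAANNTTC, in capitals.
Hspa1a, chr17:34972157-34972306, minus strand: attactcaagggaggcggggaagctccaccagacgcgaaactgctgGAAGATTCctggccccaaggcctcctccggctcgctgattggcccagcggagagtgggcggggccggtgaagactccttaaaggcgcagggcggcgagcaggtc
Hspa1b, chr17:34959239-34959388, minus strand: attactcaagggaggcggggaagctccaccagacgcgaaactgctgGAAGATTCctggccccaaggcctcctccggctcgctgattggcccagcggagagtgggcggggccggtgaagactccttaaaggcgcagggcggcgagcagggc
The core begins 104 bases before the start in both. The pattern GAANNTTC, with N for any base, reads the same on both strands. It occurs in 11 of 22 heat shock and unfolded protein genes with a window (50%), against 7.86% of all windows. Here too a listed gene counted if any of its windows held the core, while the share over all is per window.

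By list, 15 of 21 immediate early and contraction-responsive genes were positive and 0 passed, with a median of 0.41, next to 0.85 for training without drug. Of 25 heat shock and unfolded protein genes 12 were positive and 0 passed, with a median of -0.00, next to 0.41 without drug. The summed signal of the immediate early list was 7132, 4749 and 3567 in the combination, 4843, 4157 and 4154 in GW, and 8177 to 9572 in exercise arrays, against 4078 to 5204 in vehicle arrays. Without combination array 1 the medians under GW1516 were 0.08 and -0.09. With that array left out, 9 of 13575 probe sets passed for the difference of training effects, probe sets of Egr1, Hspa1a and Hspa1b among them. The array stood out by the signals of these genes, so this is a description and no test.

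GW array 1 set the direction of the stretch-responsive genes. Ankrd2, a Z-disc and nuclear protein induced by stretch, read 129, 211 and 167 in the combination and 2388, 105 and 89.4 in GW. The combination arrays lay above 2 of the GW arrays and far below the third, so the difference of -0.76 ± 0.87 became 0.78 ± 0.39 without GW array 1 (adjusted p = 0.699). Csrp3, the muscle LIM protein, read 68.7, 116 and 89.9 against 1470, 75.7 and 60.03, and went from -1.07 ± 0.83 to 0.41 ± 0.38 in the same way.

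Ankrd1 (1296 against 73.9 and 92.1 on the other GW arrays), Xirp1 (1779 against 345 and 311), the stress factor Atf3 (374 against 14.6 and 18.5) and the metallothionein Mt1 (3288 against 299 and 356) were high on that array too. The 15 stretch and Z-disc genes had a median of -0.15, with 5 positive and 0 passed, and 0.09 with 11 positive without GW array 1. On the combination arrays Ankrd1 read 79.2, 128 and 94.2, Xirp1 443, 505 and 405, and Atf3 93.3, 64.8 and 39.8. Vehicle array 1 also had the highest vehicle signal for Ankrd2 (233 against 103 and 74.3) and Mt1 (1080 against 264 and 324). What sets these arrays apart was not tested.

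Contractile genes of the main fast fibres had differences near 0. Myh4, the fast IIB myosin heavy chain and the dominant one of mouse quadriceps, read 18332, 20845 and 19735 in the combination and 19750, 18044 and 20792 in GW (0.01 ± 0.07, interval -0.13 to 0.15). Myh1, the IIX chain, had 0.09 ± 0.20 and -0.08 ± 0.24 in 2 probe sets with high signal. Myh2, the IIA chain of oxidative fast fibres, read 922, 2377 and 703 against 3205, 253 and 569. Both groups are wide and overlap, with a difference of 0.58 ± 0.73, and 1.60 ± 0.57 without GW array 1 (adjusted p = 0.580).

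Without drug, the exercise arrays had Myh2 at 1859, 2339 and 1508 and vehicle arrays at 1191, 384 and 248. Myoglobin (Mb), the oxygen store of oxidative fibres, read 6389, 8300 and 5298 in the combination and 7842, 2804 and 4670 in GW (0.48 ± 0.28, and 0.86 ± 0.23 without GW array 1, adjusted p = 0.492). Of 10 slow fibre genes 5 were positive and of 16 fast fibre genes 12, with medians of -0.03 and 0.03, and none of either list passed. The median of the slow list was 0.40 without GW array 1 and -0.29 without GW array 2.

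The listed oxidative phosphorylation genes had narrow intervals and differences near 0. Ndufa7, described above, is not in that list. Nor does the list use one of the 2 probe sets tested of Cox8a, a subunit of cytochrome oxidase. It read 719, 892 and 1031 against 734, 484 and 568 (0.57 ± 0.15, adjusted p = 0.715). Without both arrays that stand apart it had 0.87 ± 0.14 and passed (adjusted p = 0.0290). Of 53 oxidative phosphorylation genes 30 were positive and 0 passed, with a median of 0.01 and a range from -0.19 to 0.20, and the interval lay within a 1.5-fold change for 52. The extremes were the paired core proteins of complex III, Uqcrc1 at -0.19 ± 0.10 and Uqcrc2 at 0.20 ± 0.07. Cox4i1, a subunit of cytochrome oxidase, read 7608, 7770 and 8180 against 7655, 6752 and 8893 (0.02 ± 0.09).

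Of 21 tricarboxylic acid cycle genes 13 were positive and 0 passed, with a median of 0.03. Citrate synthase (Cs), the usual enzyme marker of mitochondrial content, had 0.12, 0.12 and 0.04 in its 3 probe sets, the first of them reading 4446, 4318 and 4139 against 4080, 3699 and 4133. Cytochrome c (Cycs) had 0.00 ± 0.07 in its brightest probe set, with -0.17 and -0.20 in the others. Under training without drug the oxidative phosphorylation median was 0.10, with 44 of 53 positive.

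Regulators of the training response had a median difference near 0. Ppargc1a, which encodes PGC-1α, had differences from -0.46 to -0.08 over 5 probe sets, the brightest reading 448, 451 and 533 in the combination and 918, 426 and 469 in GW. GW array 1 was high in all 5, and without it the differences ran from -0.20 to 0.26. Esrra, the nuclear receptor ERRα that works with PGC-1α, read 396, 385 and 416 against 569, 388 and 502 (-0.27 ± 0.14), and the mitochondrial transcription factor Tfam had -0.07 ± 0.13. Of 25 regulators tested 11 were positive and 0 passed, with a median of -0.01. Vegfa, the endothelial growth factor, had -0.39 ± 0.18 in one probe set and 0.23 ± 0.26 in the other. Ppard and Myh7 fell below the signal filter, and Cpt1b, Prkaa1 and Prkaa2 have no probe set listed under their symbol alone.

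Glucose handling genes had differences near 0 except for a few. Of 23 glycolysis and glycogen genes 13 were positive and 0 passed, with a median of 0.01, and 17 intervals lay within 1.5-fold. Hexokinase 2 (Hk2) read 3511, 3351 and 2850 against 3705, 3303 and 3271 (-0.09 ± 0.08), and the transporter Slc2a4 (GLUT4) had -0.09 ± 0.07 and 0.01 ± 0.13. The ends of the list were Pfkfb3, described above, and the glycogen branching enzyme Gbe1 (30.2, 65.8 and 44.5 against 156, 85.9 and 53.8, -1.01 ± 0.36, adjusted p = 0.731). Klf15, a glucocorticoid-responsive factor of amino acid and lipid use, read 374, 403 and 299 against 294, 437 and 354 (-0.01 ± 0.16), while without drug it was lower in exercise (169, 195 and 215) than in vehicle arrays (359, 351 and 425).

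None of the genes of the remaining lists passed the test. Nr1d1 stood at the top of 16 clock genes and Cry1 (-0.93 ± 0.40) at the bottom, with a list median of 0.07. Of 19 endothelial and angiogenesis genes 12 were positive, with a median of 0.04 and a range from -0.63 to 1.22. At an unadjusted p of 0.05, where 2.92% of all genes were higher and 2.70% lower, Vegfa, given above, was lower and 2 junction genes were higher. These were Cdh5 (112, 169 and 139 against 66.2, 97 and 116, 0.61 ± 0.21) and Cldn5 (92.6, 147 and 142 against 84.3, 72.7 and 89.5, 0.61 ± 0.22). Foxo1, a driver of atrophy genes, read 239, 246 and 244 against 294, 361 and 331 (-0.43 ± 0.15, adjusted p = 0.728) and its target Fbxo32 had -0.34 ± 0.17. Of the 19 proteolysis and atrophy genes 9 were positive, with a median of -0.01 and a range from -0.57 to 1.13. The highest was Ddit4, a stress-induced inhibitor of mTORC1, at 789, 434 and 168 against 154, 222 and 159 (1.13 ± 0.46, adjusted p = 0.834). It and Irs2 (0.73 ± 0.27), an adaptor of the insulin receptor, were higher at an unadjusted p of 0.05 (2.92% of all genes), and Foxo1 was lower (2.70% of all genes).

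Macrophage and immune markers had 4 of 20 positive (median -0.17), and their sums were 2024, 3242 and 3076 in the combination and 3377, 3153 and 2623 in GW. Without combination array 1, which had the lowest sum, 13 of the 20 were positive. Of 25 matrix and fibroblast genes 15 were positive (median 0.10), and of 10 interferon response genes 7 (median 0.37, and -0.00 without GW array 1). Nerve markers (5 tested of 14) had a median of 0.03. Of blood cell markers 2 of 10 were tested and of tendon and bone markers 1 of 8, too few to describe a list; the haemoglobin probe sets given above match several genes each and are not in it. Of 12 denervation and regeneration genes 5 were positive (median -0.16), of 21 antioxidant genes and metallothioneins 12 (median 0.09), and of 21 nuclear-encoded mitochondrial biogenesis genes 7 (median -0.03). Among the last, the import receptor Tomm20 read 899, 832 and 928 against 1190, 1120 and 1052 (-0.34 ± 0.09, adjusted p = 0.715), without overlap. None of these genes passed.

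**Figure D4:**
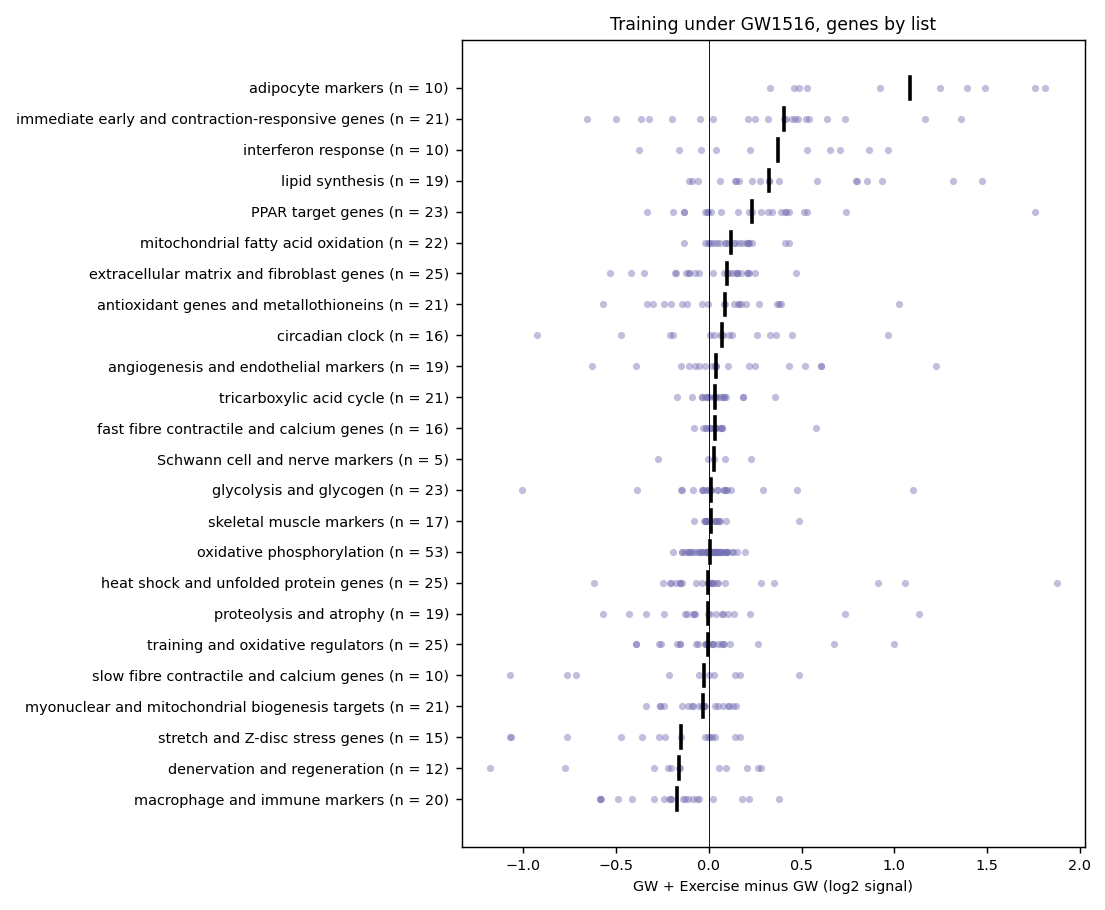
Log2 difference of GW + Exercise minus GW for each gene of the 24 lists with at least 5 genes tested (points, n in the labels), with the list median as a bar. Adipocyte markers lie wholly to the right of 0 (median 1.08), while the energy metabolism lists centre near 0 and the stretch list has a tail to the left.

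The training effects with and without drug were compared probe set by probe set, and they use different arrays. No probe set differed between them at an adjusted p of 0.05 (0 of 13575, 0%, smallest 0.102, and 922 at an unadjusted p of 0.05). Training without drug called 1 probe set higher (0.00737%) and 1 lower (0.00737%), with 773 higher (5.69%) and 644 lower (4.74%) at an unadjusted p of 0.05. Across all 13575 probe sets the effects had a Pearson r of 0.053 and a Spearman rho of 0.052, a description over probe sets of the same arrays, which are not independent replicates. The 773 had a median of 0.59 without drug and 0.03 with it, and 57.2% were positive with drug. The 644 had medians of -0.41 and -0.02, and 44.9% were positive with drug. Both sets were picked by their p without drug, which enlarges their medians in that comparison. The choice alone would give smaller medians in other arrays, so the fall with drug does not measure a drug effect on training.

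For genes with higher signal under the drug, the training differences with and without drug are set side by side. These genes were picked by GW arrays above vehicle arrays, and both groups enter the difference between the training effects. That choice by itself pushes the difference down, so negative values for these genes are a description and no test. None of the values without drug given here passed its own test (smallest adjusted p = 0.0815, for Ucp3). Ucp3 read 1049, 1105 and 953 in exercise and 723, 549 and 635 in vehicle arrays, a difference of 0.71, against -0.13 with drug. The 2 effects differed by -0.84, which had one of the smallest p-values of that comparison but did not pass (adjusted p = 0.275). Pdk4 had 0.91 without drug and -0.02 with it, Fabp3 0.51 and 0.06, Mlycd 0.38 and -0.02, and Acadl 0.32 and 0.01, with adjusted p of 0.707 to 0.727 for the differences. Slc27a1 (0.30 and 0.32) and Fbp2 (0.29 and 0.29) had nearly equal values. Those with the smallest p were Kpna4, one of 7 Kif1b probe sets (0.75), Cd24a (-1.31), Ccnl2 (2.45) and Ttf1 (2.54), and none passed.

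**Figure D5:**
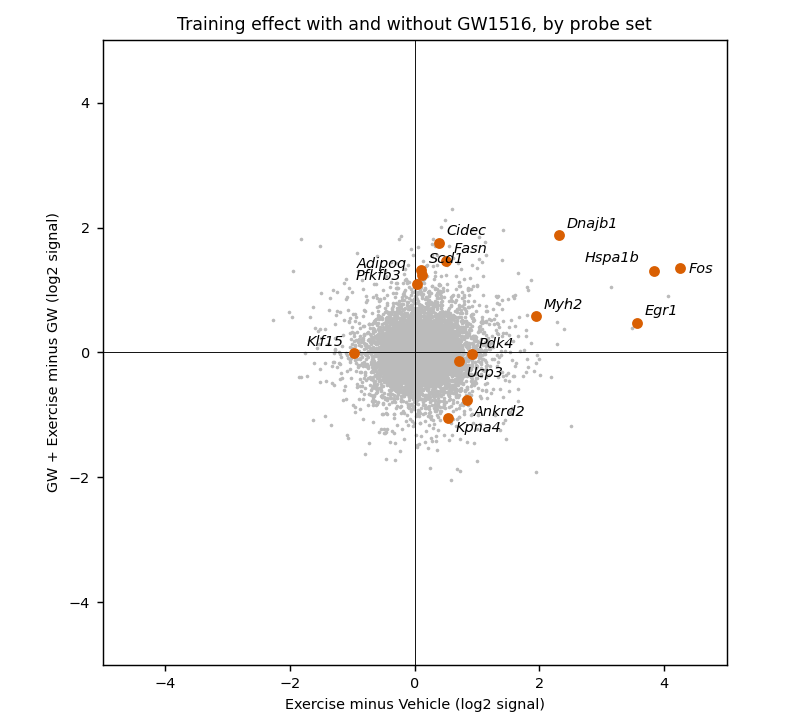
Log2 difference of Exercise minus Vehicle (horizontal) and of GW + Exercise minus GW (vertical) for each of 13575 probe sets tested, with named genes in orange. The cloud shows almost no slope (Pearson r 0.053), Fos, Egr1 and Hspa1b lie far to the right, and Scd1, Fasn, Adipoq and Cidec lie above 0. Along the horizontal axis Scd1 is at 0.11, Fasn at 0.51, Adipoq at 0.11 and Cidec at 0.40. The other Scd1 probe set, not marked, had 1.04 for Exercise minus Vehicle (unadjusted p by limma = 0.013, adjusted p = 0.354).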

How the data were processed

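Total RNA of mouse quadriceps, pooled from 3 mice per array, was hybridized to 12 oligonucleotide arrays. The authors' deposited signals are intensities on a linear scale made with MAS5, per the submitters' processing notes, its version not given in the sources used here. Trimmed means of 200.093 to 200.098 on all arrays show a common scaling. Values were log2-transformed as deposited, without a pseudocount or further scaling. After 64 AFFX control probe sets were left out, the upper 60% of 22626 probe sets by mean log2 signal (13575, mean signal above 28.4) were tested. In R 4.3.3 with limma 3.58.1, a model of the 4 groups was fitted to all 12 arrays with an intensity trend, two-sided tests, Benjamini-Hochberg adjustment over all probe sets tested and a threshold of 0.05. Depth does not apply to arrays, and 3 arrays per group limit the precision.

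Symbols came from the array annotation: 12512 tested probe sets had 1 symbol, 436 several and 627 none, and only those with 1 were named. Lists used 1 probe set per gene, the one with the highest mean signal. Named genes were the 10 with the smallest p in each direction (0 having passed), a fixed set of 41 genes, up to 4 per list with the smallest p, 5 for the difference of training effects and 5 with the widest spread in each group. Names outside this rule (genes that stood apart on 1 array, genes called without an array, Hspa1a, Hspa8, Srebf1, Srebf2, Hmgcs1, Acacb, Gpam, Dgat2, Pck1) are a choice made after seeing the values. The members and lists were chosen with earlier results of these data known. The procedure was tested on simulated data. Alternatives were other normalizations, a pseudocount, filters, moderation settings, array weights, a fit of the 6 arrays alone, array number as a block and each array left out. The 2 arrays that stand apart were left out together after seeing the data.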

Additional observations from a re-analysis of the deposited data

How the results depend on the processing

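With all 6 arrays, no probe set passed for training under GW1516 under any other normalization, pseudocount, filter or moderation setting tried, with 0 higher and 0 lower in each. The share that was higher among probe sets at an unadjusted p of 0.05 stayed between 46.6% and 50.6% under these settings. With array weights, 1 probe set (Kpna4) passed for the difference of training effects. With array number as a replicate block, 1 probe set passed as lower (Kpna4, -1.04 ± 0.13, adjusted p = 0.0296) and 1 for the difference (Kpna4, adjusted p = 0.0139). Residual correlations of same-numbered combination and GW arrays were -0.025, 0.012 and 0.015, which show no pairing by number between these 2 groups. They do not cover the vehicle and exercise arrays, which the block fit also uses, and a factor shared by some genes was not tested. Leaving out 1 array at a time gave, of 13575 probe sets, 0 to 31 higher, 0 to 4 lower and 0 to 9 for the difference. The counts of 31, 4 and 9 came without combination array 1. Without GW array 2 there was 1 higher (Pfkfb3) and 3 for the difference, and without vehicle array 1 there was 1 for the difference (Kpna4, adjusted p = 0.0310). Without both arrays that stand apart, a choice made after seeing the data, 28 of 13575 were higher, 2 lower and 6 differed between training effects. Of the 22 genes higher, 11 were again adipocyte or lipid synthesis genes, lists with 10 and 19 of the 7940 genes tested. Apart from the arrays left out, the cause was not tested. Over 23 alternatives, 0 to 18 of the named probe sets changed sign, all of them uncalled in the fit reported.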
